A study of Homo sapiens with 2 samples.

Results

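Glycolysis turns glucose into pyruvate in the cytosol, and lactate dehydrogenase turns pyruvate into lactate. Many enzymes of this pathway are classic targets of the hypoxia-inducible factors (HIF). In HIF an oxygen-labile α subunit (HIF1A or EPAS1) pairs with ARNT and binds the hypoxia response element in DNA. In the presence of oxygen the EGLN prolyl hydroxylases mark the α subunit for degradation through VHL, and glioblastomas are known for high glycolysis and for hypoxic zones.

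The genes described here are 47 names of glycolytic enzymes, their regulators, the oxygen-sensing factors and other HIF targets, out of 19775 genes with a probe set of their own on the array. They were chosen by function, and a probe set was taken when the platform annotation gave it 1 of these symbols alone. That gave 110 probe sets for 45 genes, of 54613 in all, and 3 array control probe sets for GAPDH. CA9 and INSIG2B had no such probe set. A probe set was kept when its mean signal on both arrays reached 19.8, the median of all probe sets, and 94 probe sets of 43 genes were kept. EGLN2 and EGLN3 were read at dim signals alone.

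The study silenced the homeobox gene HOXD9 in U87, an established human glioblastoma cell line. HOXD9 siRNA-2 and a non-silencing control siRNA were each transfected at 50 nM, and RNA was taken on Day 2. Each group is 1 Affymetrix U133 Plus 2.0 array, which reads a transcript with 1 or more groups of short probes called probe sets. With 1 array a group, no error, test or p-value can be given, and every ratio compares these 2 arrays of 1 cell line and 1 siRNA. An array reads pooled RNA, so fewer cells with a transcript and less of it per cell cannot be told apart.

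HOXD9 itself was dim. Its brighter probe set read 5.58 with HOXD9 siRNA-2 and 19.7 with control siRNA, and the other one 11.4 with HOXD9 siRNA-2 and 9.33 with control siRNA. Probe sets for bacterial control transcripts reached 18.4 with HOXD9 siRNA-2 and 11.4 with control siRNA, and 18.4 is used below as the background. Where 1 signal of a pair lay under it, only a lower bound of the fold is printed, the other signal over 18.4. Against it HOXD9 was at least 1.07-fold lower. After each array is centered on its median both of its signals lie within the background, so that no fold is left and the arrays do not settle the knockdown. The study measured HOXD9 separately in U87 by qRT-PCR and presents its siRNAs as reducing it. The arrays were not on one scale, since the median signal was 18.3 with HOXD9 siRNA-2 and 22.5 with control siRNA. The median log2 ratio of all 11624 genes kept was -0.25, and the ratios of the 18 hybridization spike-in probe sets also lay below 0, from -0.46 to -0.01. Centering each array on its median adds 0.30 to every log2 ratio, so directions are given below relative to the other genes. Among glioma markers VIM and CD44 were bright (10823 and 5012 with HOXD9 siRNA-2, 11349 and 5638 with control siRNA), whereas GFAP, S100B, OLIG2 and AQP4 stayed within the background. SOX2 (7.91 with HOXD9 siRNA-2 and 19.2 with control siRNA) exceeded it with control siRNA alone, and NES gave 70.6 with HOXD9 siRNA-2 and 116 with control siRNA. Of 12 markers of neurons, immune, endothelial and epithelial cells, SNAP25 alone read above 50 on its brightest probe set, at 379 with HOXD9 siRNA-2 and 549 with control siRNA.

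The genes of glycolysis and of the hypoxia response differed little between HOXD9 siRNA-2 and control siRNA, with 2 exceptions. PGAM1 and ERO1A were lower by more than 2-fold after HOXD9 silencing, and none of the 43 genes was higher by more than 2-fold on its brightest probe set. The other 41 genes had log2 ratios between -0.59 and 0.48. The median of the 43 was -0.06, and 38 of them lay above the median of all genes. Bright genes did so more often in general, since 1010 of all 1427 genes with a mean signal of 1000 or more (70.8%) lay above it, and 23 of the 24 members of that signal. As deposited the 2 lower genes were 4.65% of the 43. Of all genes 4.95% were past 2-fold on the lower side and 0.516% on the higher side. The lower share fell with signal, from 10.5% of all genes under 100 to 2.67% at 100 to 1000 and 0.631% at 1000 or more. The 4.95% is thus not matched for signal to the 43, of which 24 lie in the brightest class. After centering the same 2 genes (4.65% of the 43) stayed past 2-fold, beside 2.31% of all genes lower and 1.17% higher.

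**Figure D1:**
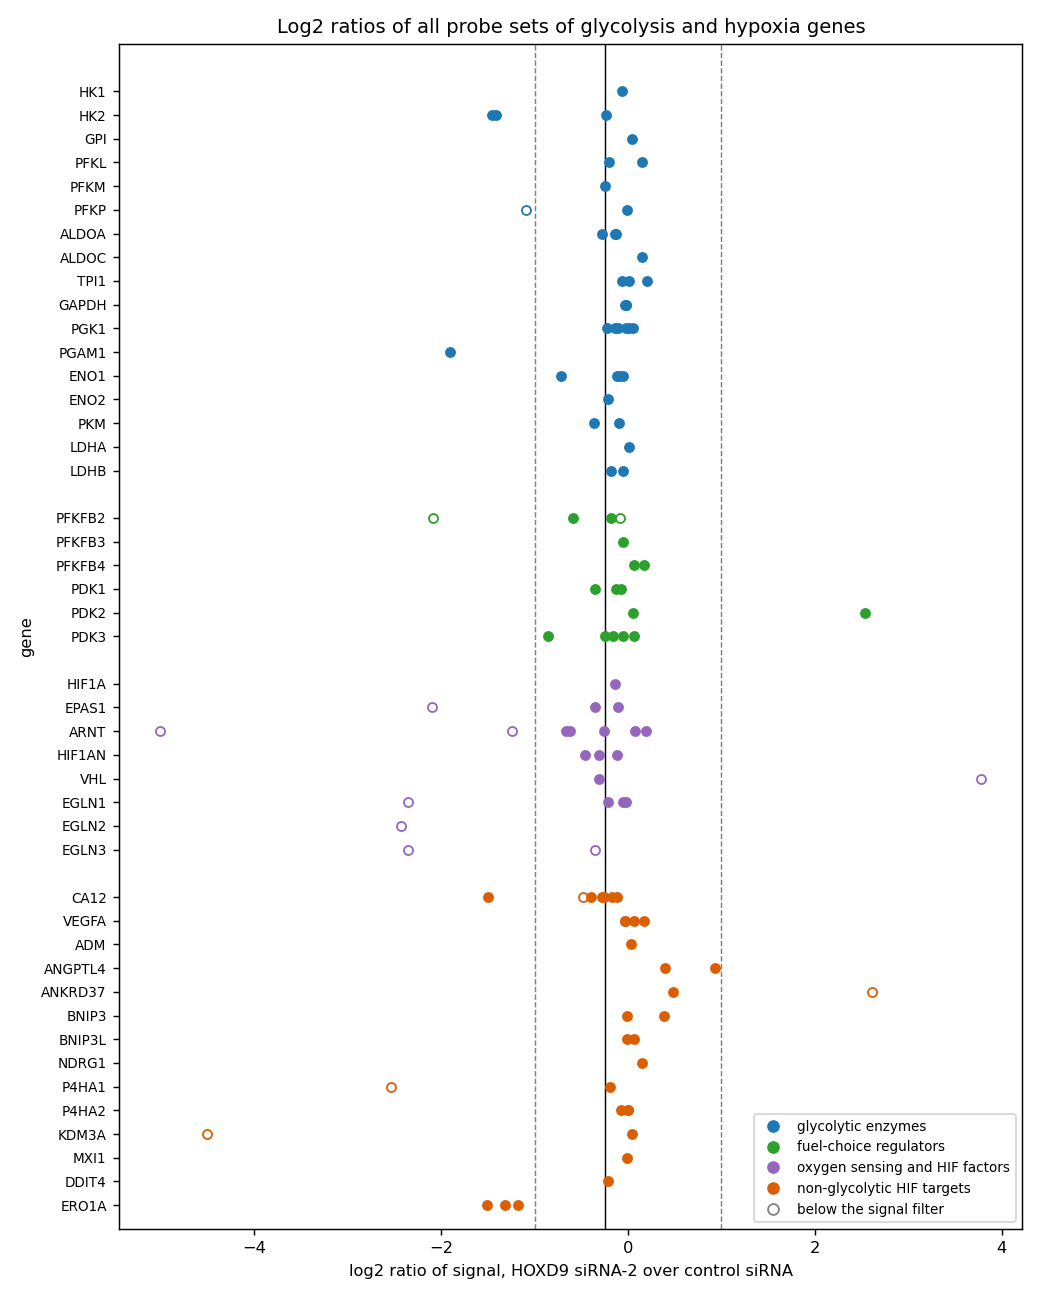
Each point is a probe set of 1 of the 45 genes (rows), placed by its log2 ratio, HOXD9 siRNA-2 over control siRNA (x axis), colored by role, with a hollow marker below the signal filter. The solid line stands at the median of all genes, -0.25, and the dashed lines at 2-fold. Filled points cluster near 0, except PGAM1, all 3 points of ERO1A, 2 points of HK2 and single points of CA12 and PDK2, and the far points to either side are mostly hollow.

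PGAM1, phosphoglycerate mutase, shifts the phosphate within phosphoglycerate, and was the only one of 17 glycolytic enzymes past 2-fold on its brightest probe set. Its 1 probe set gave 1583 with HOXD9 siRNA-2 and 5912 with control siRNA, or 26.8% of the control. The log2 ratio was -1.90, and -1.60 after centering. Among the 1427 genes with a mean signal of 1000 or more, 0.631% were lower by more than 2-fold, and PGAM1 was 1 of 2 genes with a ratio of -1.90 or less. Over all 11624 genes, 75 were as low. The name of this probe set ends in _s_at, a suffix for probes that can match more than 1 transcript, and PGAM4, a near copy of PGAM1, had no named probe set of its own. No other probe set of PGAM1 checks the value. PGAM1 lies on chromosome 10, and the 8 other genes of these lists on that chromosome had log2 ratios from -0.46 to -0.01.

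ERO1A, an oxidase that helps proteins fold in the endoplasmic reticulum and is induced by HIF, was lower on all 3 of its probe sets. The brightest gave 341 with HOXD9 siRNA-2 and 852 with control siRNA, a log2 ratio of -1.32. The second gave 241 with HOXD9 siRNA-2 and 544 with control siRNA, a log2 ratio of -1.17, and the third 56.6 with HOXD9 siRNA-2 and 162 with control siRNA, a ratio of -1.51. ERO1A transcripts thus read at 35.0% to 44.4% of the control on every probe set. Of 2872 genes with 3 or more probe sets kept, 0.348% (10 genes) were lower by more than 2-fold on each of them, ERO1A included. After centering the 3 ratios were -1.02, -0.87 and -1.21, so 1 of them fell short of 2-fold. HIF1A, on chromosome 14 like ERO1A, had a log2 ratio of -0.14.

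**Figure D2:**
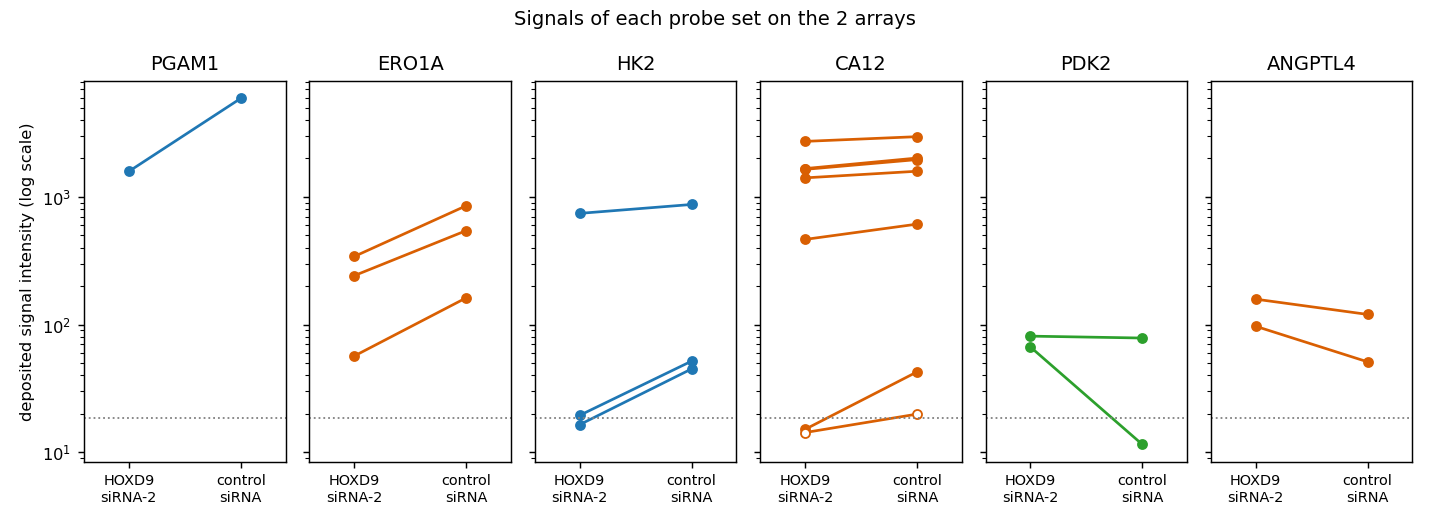
Deposited signal (y axis, log scale) of each probe set with HOXD9 siRNA-2 (left) and control siRNA (right) for 6 genes, with filled points for probe sets above the filter and open points below it. The dotted line is the background of 18.4. The PGAM1 line and the 3 ERO1A lines lie lower on the left and stay above the background, whereas the steep lines of HK2, CA12 and PDK2 end at or near it.

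The hypoxia response element is recognized by its core, ACGTG or GCGTG on either strand. Promoter windows (250 bases before to 50 after a transcription start, RefSeq, GRCh38.p14) were found for 41 of the 47 names, and NDRG1, VEGFA, BNIP3L, VHL, PFKFB2 and INSIG2B had none. The core letters stood in 46 of 70 windows of these genes (65.7%), against 48.4% of all 35116 windows. By role they stood in 23 of 37 windows of glycolytic enzymes (62.2%) and in 13 of 15 windows of HIF targets outside glycolysis (86.7%). Some genes have several windows, and by gene the 2 lists were alike. At least 1 window with the core was found for 16 of 17 enzymes (94.1%) and 11 of 12 other targets (91.7%). Of all 27305 genes with a window, 52.4% had one. A gene with more windows has more places for a match, and these shares by gene are not matched for the number of windows. To set ERO1A, the lower gene among the HIF targets outside glycolysis, beside 3 genes within 2-fold, the windows of ERO1A, ANKRD37 and the glycolytic enzymes LDHA and PGK1 are printed. The only window listed for PGAM1 starts inside the gene, held no match and is not printed, and it is counted among the 37. LDHA has a second window with 1 match. They are ERO1A at chr14:52695509-52695808 (minus strand), ANKRD37 at chr4:185396591-185396890, LDHA at chr11:18394313-18394612 and PGK1 at chrX:78103998-78104297 (plus strand). Capitals mark the core letters, and in CACGTG a match on each strand overlaps.
ERO1A: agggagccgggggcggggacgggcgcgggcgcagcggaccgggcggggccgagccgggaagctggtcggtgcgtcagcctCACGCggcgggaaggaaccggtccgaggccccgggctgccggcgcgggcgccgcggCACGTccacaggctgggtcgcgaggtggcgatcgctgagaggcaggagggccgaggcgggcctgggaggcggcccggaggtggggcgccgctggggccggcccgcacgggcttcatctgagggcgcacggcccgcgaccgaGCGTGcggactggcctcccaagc
ANKRD37: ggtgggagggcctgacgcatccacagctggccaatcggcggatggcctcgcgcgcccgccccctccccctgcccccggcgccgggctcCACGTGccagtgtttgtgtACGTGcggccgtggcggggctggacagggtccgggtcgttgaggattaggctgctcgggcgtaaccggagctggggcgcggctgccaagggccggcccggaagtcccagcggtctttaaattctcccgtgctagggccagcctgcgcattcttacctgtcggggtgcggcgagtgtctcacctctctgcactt
LDHA: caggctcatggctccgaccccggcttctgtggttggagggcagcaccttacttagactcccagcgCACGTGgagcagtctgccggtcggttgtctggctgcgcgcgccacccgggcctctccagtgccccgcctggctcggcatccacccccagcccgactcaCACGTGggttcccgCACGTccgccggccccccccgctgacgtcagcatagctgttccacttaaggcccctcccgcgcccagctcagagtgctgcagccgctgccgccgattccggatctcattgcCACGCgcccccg
PGK1: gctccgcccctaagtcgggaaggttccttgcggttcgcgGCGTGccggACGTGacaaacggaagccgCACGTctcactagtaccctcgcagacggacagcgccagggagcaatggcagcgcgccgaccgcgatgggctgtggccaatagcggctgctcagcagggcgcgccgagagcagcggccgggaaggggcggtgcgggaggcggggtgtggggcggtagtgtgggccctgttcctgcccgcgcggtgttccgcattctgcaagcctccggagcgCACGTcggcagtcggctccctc
The core occurred 3 times in the ERO1A window, 3 times in that of ANKRD37, 6 times in that of LDHA and 4 times in that of PGK1, overlapping matches counted apart. The log2 ratio was -1.32 for ERO1A, 0.48 for ANKRD37, 0.01 for LDHA and -0.14 for PGK1. A match of letters describes the window and does not show that a factor was bound.

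Glycolytic enzymes apart from PGAM1 kept to a narrow band on their brightest probe sets. All 17 enzymes passed the filter, 14 of them at a mean signal of 1000 or more. Without PGAM1 the 16 others ranged from -0.24 (PFKM) to 0.15 (ALDOC). Of the 17, 16 (94.1%) lay within 0.25 of 0 on the log2 scale as deposited. Among the 14 bright ones 13 (92.9%) did, and among all genes with a signal of 1000 or more 70.1%. Nearness to 0 depends on the scaling, so these shares do not measure how narrow the band was. After centering the 16 enzymes ranged from 0.06 (PFKM) to 0.45 (ALDOC). As deposited, the lower and upper quartiles were -0.17 and -0.03 for the 14 bright enzymes. They were -0.27 and -0.07 for all genes of that signal. The median log2 ratio was -0.10 for the 14 and -0.17 for all genes of that signal.

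The first steps of the pathway take up glucose and commit it to breakdown. HK1, a hexokinase that traps glucose in the cell, gave 1994 with HOXD9 siRNA-2 and 2082 with control siRNA, a log2 ratio of -0.06. GPI, glucose phosphate isomerase, gave 1811 with HOXD9 siRNA-2 and 1764 with control siRNA, a log2 ratio of 0.04. The phosphofructokinase subunits PFKP, PFKM and PFKL, which form the committing enzyme, stood at -0.01, -0.24 and 0.15 on the log2 scale by their brightest probe sets, and the dimmer PFKL probe set gave -0.21. As deposited the PFKL sign depended on the probe set, whereas after centering both PFKL probe sets lay above 0, at 0.45 and 0.09. No subunit was past 2-fold above the filter.

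HK2, the hexokinase often raised in tumors, was the one glycolytic enzyme whose probe sets above the filter spanned more than 1 on the log2 scale. Its brightest probe set gave 742 with HOXD9 siRNA-2 and 871 with control siRNA, a log2 ratio of -0.23. A dim one gave 19.4 with HOXD9 siRNA-2 and 51.6 with control siRNA, a log2 ratio of -1.41, and the last gave 16.4 with HOXD9 siRNA-2 and 44.9 with control siRNA, at least 2.44-fold lower. The 2 probe sets past 2-fold thus lay near the background with HOXD9 siRNA-2, whereas the probe set far above it stood close to the median of all genes. After centering they gave -1.11 and at least 1.98-fold, and the brightest 0.07. The mean of the 3 probe sets was -1.03, and -0.98 with the signal in the background raised to 18.4, so that it passed 2-fold only through a signal within the background.

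The middle and lower steps were read mostly at bright signals, far above the background. ALDOA, the main aldolase, had log2 ratios from -0.27 to -0.13 on 3 probe sets, and TPI1, triose phosphate isomerase, from -0.06 to 0.20 on 3. GAPDH, the dehydrogenase that the study used as its qRT-PCR reference, gave 10615 with HOXD9 siRNA-2 and 10757 with control siRNA on its brightest probe set. Of the 3 array control probe sets for GAPDH, the one at the 5' end gave 12357 with HOXD9 siRNA-2 and 12010 with control siRNA. The middle one gave 10331 with HOXD9 siRNA-2 and 10814 with control siRNA, and the one at the 3' end 11149 with HOXD9 siRNA-2 and 11394 with control siRNA. All 6 GAPDH ratios lay between -0.07 and 0.04. With each array centered on its median they lay between 0.23 and 0.34, so the sign of a small GAPDH difference depended on the scaling.

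PGK1, phosphoglycerate kinase, comes just before PGAM1 in the pathway and ENO1, enolase, just after it. The 6 PGK1 probe sets had log2 ratios from -0.23 to 0.06, and the brightest gave 7468 with HOXD9 siRNA-2 and 8215 with control siRNA. ENO1 gave 9384 with HOXD9 siRNA-2 and 10056 with control siRNA on its brightest probe set, a log2 ratio of -0.10. Of the other 3 ENO1 probe sets the lowest gave -0.72 at signals of 68.6 with HOXD9 siRNA-2 and 112.9 with control siRNA. Both neighbors of the mutase step thus stood near 0 on their bright probe sets, where PGAM1 stood at -1.90. ENO2, the neuronal enolase, had a log2 ratio of -0.21 and PKM, pyruvate kinase, -0.10 and -0.36 on its 2 probe sets.

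The lactate dehydrogenase subunits close the pathway. LDHA gave 10343 with HOXD9 siRNA-2 and 10239 with control siRNA, a log2 ratio of 0.01. LDHB gave 6022 with HOXD9 siRNA-2 and 6817 with control siRNA on its brighter probe set, a log2 ratio of -0.18, and -0.06 on the other. Neither subunit was past 2-fold under any scaling.

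**Figure D3:**
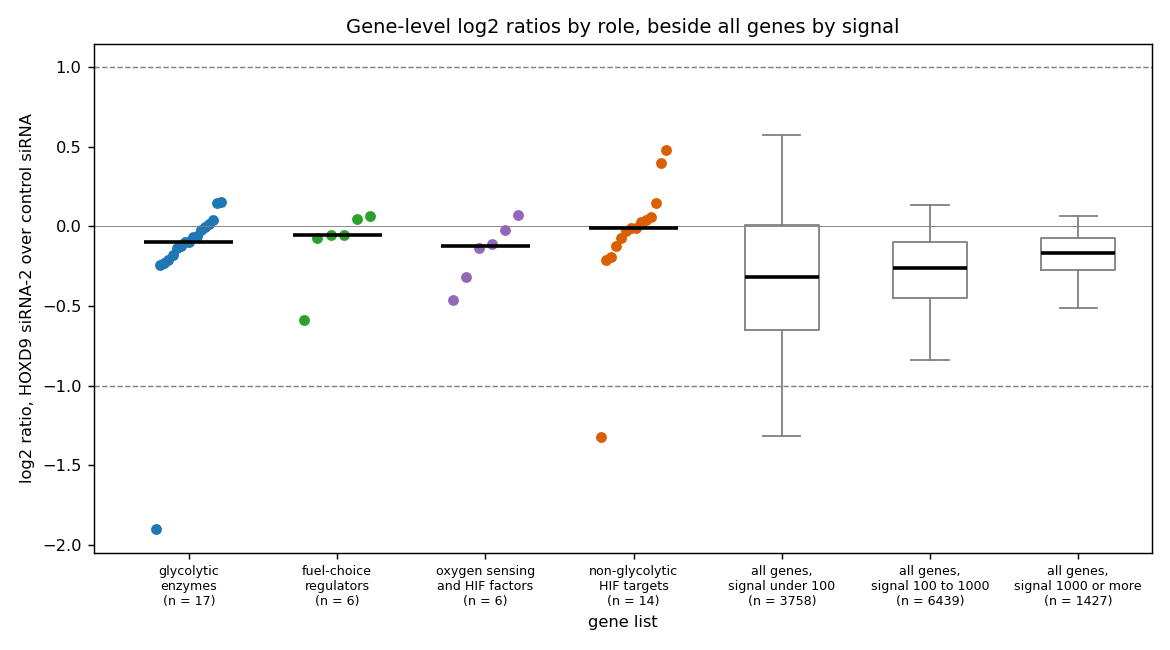
Ratio of HOXD9 siRNA-2 over control siRNA for each gene on its brightest probe set (y axis, log2) in the 4 role lists, with black bars at the medians, beside all genes in 3 classes of mean signal (boxes hold the middle 50%, whiskers 5% to 95%). Dashed lines mark 2-fold. PGAM1 at -1.90 and ERO1A at -1.32 lie far below the rest of their lists, and the boxes narrow and move toward 0 as signal grows.

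The regulators of fuel choice set how much glycolysis runs and whether pyruvate enters the mitochondria. All 6 passed the filter, none was past 2-fold on its brightest probe set, and their median log2 ratio was -0.05. PFKFB3 and PFKFB4 make the sugar phosphate that activates phosphofructokinase, and both are HIF targets. PFKFB3 gave 505 with HOXD9 siRNA-2 and 523 with control siRNA, a log2 ratio of -0.05. PFKFB4 gave 465 with HOXD9 siRNA-2 and 445 with control siRNA, a log2 ratio of 0.06, and 0.17 on its other probe set. PFKFB2, from the same family, had the lowest value of this list, with 50.7 with HOXD9 siRNA-2 and 76.1 with control siRNA, a log2 ratio of -0.59.

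The pyruvate dehydrogenase kinases PDK1, PDK2 and PDK3 shut off the entry of pyruvate into the citric acid cycle. PDK1, a HIF target, gave 749 with HOXD9 siRNA-2 and 789 with control siRNA, a log2 ratio of -0.07, and its other probe sets gave -0.13 and -0.36. PDK3 ranged from -0.86 to 0.06 over 5 probe sets, with the lowest at signals of 24.7 with HOXD9 siRNA-2 and 44.8 with control siRNA. PDK2 had the widest span of all these genes. One of its probe sets gave 81.1 with HOXD9 siRNA-2 and 78.4 with control siRNA, whereas the other gave 66.8 with HOXD9 siRNA-2 and 11.5 with control siRNA. On the second PDK2 was at least 3.63-fold higher, and on the first its log2 ratio was 0.05. The second probe set lay within the background with control siRNA alone, and the first was above it on both arrays.

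The oxygen-sensing genes were within 2-fold. Of 8, 6 passed the filter, and their median log2 ratio was -0.12. HIF1A, the α subunit of HIF-1, gave 4557 with HOXD9 siRNA-2 and 5013 with control siRNA, a log2 ratio of -0.14. EPAS1, that of HIF-2, gave 3833 with HOXD9 siRNA-2 and 4134 with control siRNA, a log2 ratio of -0.11, and -0.36 on a dimmer probe set. These subunits are controlled by protein degradation, which an array does not read.

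Partners and brakes of HIF gave mixed values, all within 2-fold above the filter. ARNT, the shared β subunit, ranged from -0.67 to 0.19 over 5 probe sets and gave 104.0 with HOXD9 siRNA-2 and 98.9 with control siRNA on the brightest. HIF1AN, the hydroxylase that blocks HIF activity, gave 269 with HOXD9 siRNA-2 and 371 with control siRNA, and its 3 probe sets stood at -0.46, -0.31 and -0.11 on the log2 scale. EGLN1, the main oxygen sensor, gave 867 with HOXD9 siRNA-2 and 878 with control siRNA, a log2 ratio of -0.02. The EGLN2 probe set and both EGLN3 probe sets lay within the background on both arrays, so no fold is given for them. For VHL, the probe set above the filter gave 75.1 with HOXD9 siRNA-2 and 93.4 with control siRNA, a log2 ratio of -0.31 that is close to the -0.25 of all genes. Its other probe set gave 15.0 with HOXD9 siRNA-2 and 1.09 with control siRNA, both within the background, so no fold is given.

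Among HIF targets outside glycolysis, 14 of 15 passed the filter. ERO1A was lower and none was higher by more than 2-fold, and the other 13 ranged from -0.21 (DDIT4) to 0.48 (ANKRD37). The median log2 ratio of the 14 was -0.01, and 13 of them lay above the median of all genes. A log2 ratio above 0 was found for 6 of these 14, and for 1955 of all 11624 genes.

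The targets that act outside the cell were led by 3 bright transcripts. VEGFA, the vessel growth factor, gave 4285 with HOXD9 siRNA-2 and 4373 with control siRNA, and its 4 probe sets ranged from -0.03 to 0.17. ADM, which encodes the vasodilator adrenomedullin, gave 2245 with HOXD9 siRNA-2 and 2202 with control siRNA, a log2 ratio of 0.03. CA12, a carbonic anhydrase that handles acid at the cell surface, gave 2720 with HOXD9 siRNA-2 and 2961 with control siRNA, a log2 ratio of -0.12. None of them was past 2-fold on its brightest probe set. Above the filter CA12 had 6 probe sets, of which 5 lay between -0.40 and -0.12 and the dimmest, at 15.1 with HOXD9 siRNA-2 and 42.5 with control siRNA, was at least 2.31-fold lower, or 1.88-fold after centering.

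ANGPTL4, a secreted regulator of lipid metabolism, was the HIF target with a probe set closest to a 2-fold rise. Its brighter probe set gave 158 with HOXD9 siRNA-2 and 119.9 with control siRNA, a log2 ratio of 0.40. The dimmer gave 96.9 with HOXD9 siRNA-2 and 51.0 with control siRNA, a log2 ratio of 0.93. After centering that ratio was 1.23, which is past 2-fold on the higher side. ANKRD37, an ankyrin repeat protein, had the highest ratio of the 43 genes, with 385 with HOXD9 siRNA-2 and 276 with control siRNA, a log2 ratio of 0.48 (0.78 after centering). Both were thus higher with the signals as deposited as well as after centering, within 2-fold on their brightest probe sets. Of all genes, 3.35% had a ratio as high as ANGPTL4 and 2.52% one as high as ANKRD37.

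The remaining targets act inside the cell. BNIP3 and BNIP3L, which direct mitochondria to autophagy, had log2 ratios of -0.01 and 0.06 on their brightest probe sets. The second BNIP3 probe set gave 2583 with HOXD9 siRNA-2 and 1985 with control siRNA, a log2 ratio of 0.38. P4HA1 and P4HA2, the α subunits of collagen prolyl hydroxylase, had log2 ratios of -0.19 and -0.07. The histone demethylase KDM3A stood at 0.04, the MYC antagonist MXI1 at -0.01, NDRG1 at 0.15 and DDIT4, an inhibitor of mTOR signaling, at -0.21.

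Set side by side, glycolytic enzymes had a median log2 ratio of -0.10 and the HIF targets outside glycolysis one of -0.01, a difference of -0.09. Where a gene had 2 or more probe sets above the filter, their log2 ratios scattered with a pooled SD of 0.39 in the 25 such genes of these lists and 0.41 in all 6081. That spread is of single probe sets and gives no error for a list's median, and with 1 array a group the difference has no test. Of 12 alternatives, 6 left the difference at the same value, and under the other 6 it lay between -0.15 and -0.05. Most of the unchanged values were fixed beforehand and are no check of it. Centering shifts both lists alike, and the filters and the floor left the brightest probe sets of both lists as they were. The lists also differed in brightness, with a median of the mean signal of 3747 for the enzymes and 1823 for the other targets, against 198 for all genes. With the trend of the ratio on signal removed by loess, the enzymes stood at 0.03, the other targets at 0.17 and all genes at 0.01. The difference between the lists was -0.15 after loess and -0.09 as deposited, and the part that brightness has in it was not tested.

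**Figure D4:**
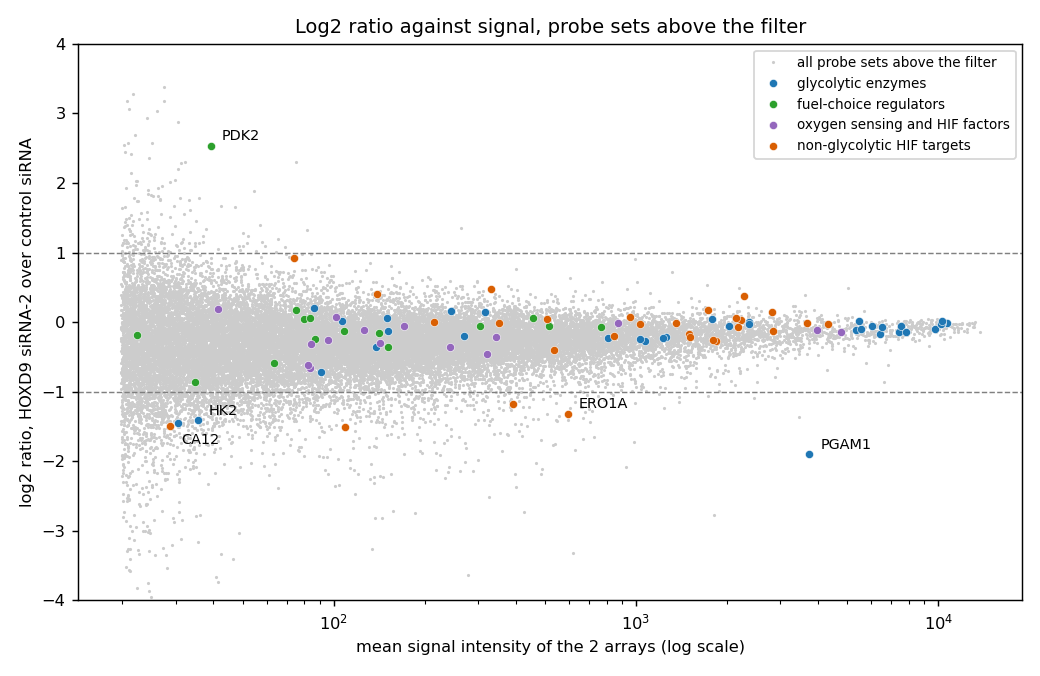
Ratio of HOXD9 siRNA-2 over control siRNA (y axis, log2) against the mean signal of both arrays (x axis, log scale). Gray points are all probe sets above the filter, and colored points are those of the 4 role lists. Dashed lines mark 2-fold, and 12 gray points lie beyond the y axis. PGAM1 is the only colored point past 2-fold at high signal, whereas the colored points past 2-fold for HK2, CA12 and PDK2 lie at the dim end, where gray points spread as widely.

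At the level of probe sets, 7 of the 94 above the filter were lower by more than 2-fold, beside 6.69% of all. They were the 3 of ERO1A, 2 of HK2 and 1 each of PGAM1 and CA12. The 1 that was higher belonged to PDK2, beside 0.615% of all. After centering 6 of the 94 were lower and 2 higher, those of PDK2 and the dimmer of ANGPTL4. The shares of all probe sets were not computed after centering. Of the 16 below the filter, 12 were past 2-fold and 14 lay within the background on both arrays, and 51.3% of all probe sets below the filter were past 2-fold. HK2, PDK2 and CA12, 3 genes of these lists, spanned more than 1 on the log2 scale between probe sets above the filter. That is 12.0% of the 25, against 13.3% of the 6081.

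Further genes of both pathways were listed beside these. Of 30 further genes of glucose uptake, glycolysis and pyruvate dehydrogenase, 17 passed the filter, with a median log2 ratio of -0.14. By more than 2-fold 2 were lower (11.8% of the 17) and 0 higher, beside 4.95% and 0.516% of all genes. ENO3, the muscle enolase, was lower at dim signals, with 19.7 with HOXD9 siRNA-2 and 45.1 with control siRNA. PGM2, a phosphopentomutase, gave 190.2 with HOXD9 siRNA-2 and 387 with control siRNA, a log2 ratio of -1.03, and -0.49 and -0.36 on its other probe sets. Neither was past 2-fold after centering, where 2.31% of all genes were lower. The glucose transporters SLC2A1 and SLC2A3 had log2 ratios of -0.14 and -0.12 on their brightest probe sets. The other SLC2A1 probe set gave 38.6 with HOXD9 siRNA-2 and 22.8 with control siRNA, a log2 ratio of 0.76, or 1.06 after centering, which is past 2-fold on the higher side. The brightest of this list were PGM1 at -0.03, PDHB at 0.05 and DLD at -0.33.

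Of 35 further genes of the HIF system and its targets, 31 passed the filter, and their median log2 ratio was -0.02. Lower by more than 2-fold was 1 of the 31 (3.23%), beside 4.95% of all genes. That was CCNG2, an atypical cyclin linked to cell cycle arrest, with 81.8 with HOXD9 siRNA-2 and 168 with control siRNA. Its other probe sets above the filter gave -0.76 and -0.60, and its brightest stood at -0.74 after centering, short of 2-fold. Among the brightest, MIF had a log2 ratio of -0.07, TFRC -0.21 and IGFBP3 0.04. Of the 31 genes, 24 lay above the median of all genes.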

How the data were processed

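Each of the 2 arrays, U87 cells transfected with HOXD9 siRNA-2 or control siRNA, is 1 group of 1 sample. What the authors deposited is 1 linear signal intensity for each probe set. GCOS stands in the submitters' processing notes and GeneSpring in the methods, and neither source used here gives the scaling target.

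Log2 ratios were computed for 54613 probe sets, leaving out 62 control probe sets. Gene symbols came from the platform annotation, updated through Entrez numbers to RefSeq symbols (41037 matched, 41091 with 1 gene, 1801 with several, 11721 unlisted). Each gene is represented by the brightest of its probe sets above the filter. Background was the highest of 27 probe sets for Bacillus subtilis transcripts. The threshold was the study's, more than 2-fold. The number of arrays limits the precision. The members, the lists and the alternatives were chosen with earlier results of these data known. Values in full were planned for genes past 2-fold or spanning over 1 between probe sets, for HK2, VHL, GAPDH, ANGPTL4 and PDK2, and for the 3 brightest of each list, and those of the remaining members were added after they were seen. Alternatives were centering, quantile normalization, loess (fraction 0.3), other filters (none, the 70th percentile at 75.7, both signals above 18.4), a floor at the 20th percentile, dropping the suffixes _x_at and _s_at, and the mean or median over probe sets. Changes in which genes entered the 2 main lists were also tried. The ratios were tested on simulated data. Python 3.11.15, numpy 2.4.6, pandas 2.3.3, statsmodels 0.14.6 and matplotlib 3.10.9 were used.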

Additional observations from a re-analysis of the deposited data

How the results depend on the processing

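No paired analysis was possible because each group holds 1 array. Centering shifts every median by 0.30 and so turns the sign of the role lists. After centering the medians were 0.20 for glycolytic enzymes, 0.25 for fuel-choice regulators, 0.18 for oxygen-sensing genes and 0.29 for the other HIF targets, against 0.05 for all genes. HOXD9, with a signal in the background, has no fold to compare between scalings. PGAM1 ranged from -1.90 to -1.60 and ERO1A from -1.34 to -1.02. Without probe sets ending in _x_at or _s_at PGAM1 had no value, so that 0 glycolytic enzymes and 1 of all the genes were lower by more than 2-fold. With the mean or the median over probe sets, HK2 joined the lower glycolytic enzymes (2 in all) and PDK2 (1.29) was the 1 higher regulator and the 1 higher gene of all. The HK2 median, -1.41, was the ratio of a probe set above the background on both arrays. The means of both genes and the PDK2 median used a signal within the background. With such signals raised to 18.4, an alternative chosen after seeing the data, the mean was -0.98 for HK2 and 0.95 for PDK2, short of 2-fold, and the median -1.29 for HK2, which again made 2 lower glycolytic enzymes. Without a signal filter 1 oxygen-sensing gene (EGLN2) counted as lower, and in the wider hypoxia list 2 as lower (HIF3A added) and 1 as higher (EPO), but these 3 genes lay within the background on both arrays, so that no fold holds for them. The wider glycolysis list had 0 lower genes after centering, quantile normalization and loess, and 1 with the stricter filter and with the mean or median over probe sets. The wider hypoxia list had 0 after centering, quantile normalization, loess and with the mean or median.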
